A study of Saccharomyces cerevisiae BY4741 with 24 samples.

Results

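The 6 h between 18 h and 24 h after inoculation were examined in Saccharomyces cerevisiae grown in 0.5% glucose, the calorically restricted condition of a time course on chronological lifespan. The step was taken as the 3 arrays labelled 24 h in 0.5% glucose against the 3 arrays labelled 18 h in 0.5% glucose, which are 6 of the 24 arrays, and covered all 5449 yeast genes with an annotated probe set on the Affymetrix Yeast Genome 2.0 array. All groups were the haploid laboratory strain BY4741 of mating type a, which lacks LEU2, URA3 and MET17 and part of HIS3, in shaken liquid cultures of the rich medium YPD. The other level, 2% glucose, served as the control condition, and both levels were also harvested at 12 h and 48 h, with 3 arrays per combination, which the design calls biological triplicates. The sources used here do not give the cell density, the glucose left in the medium or the share of dividing cells at each harvest. Whether the 18 h and 24 h arrays of one number came from the same culture is not stated either.

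Yeast in glucose ferments first and, once glucose is spent, passes the diauxic shift to respire the ethanol and acetate it has made. Growth then slows, cells store trehalose and glycogen, mitochondrial and peroxisomal enzymes handle the remaining carbon, and the culture enters stationary phase. Progress through the cell cycle, iron uptake, nutrient sensing by the TOR and protein kinase A pathways and the recycling of cell material by autophagy are all known to be regulated along this course.

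The 6 arrays fell into both harvest times along the 1st principal component, which held 79.5% of the variance between them. The 24 h arrays lay at 10.1 to 11.4, and 18 h replicates 2 and 3 at -11.8 and -12.7. The 18 h replicate 1 stood apart at -7.61, on the side of the 24 h arrays, so counts are given below also without it for some lists. Counts of other lists changed as well. Without this array the falls for mitochondrial import went from 16 to 21 and the rises of proteasome genes from 6 to 3. The signal from the 3′ end of ACT1 exceeded that from its 5′ end by 0.56 to 0.67 (log2) at 18 h and by 0.73 to 0.75 at 24 h, without overlap, and its part in the results was not tested. All 7 genes specific to mating type a were above a background of 2.29, below which 95% of the 1746 probe sets for Schizosaccharomyces pombe lay. At 1 or both harvests so were all 4 genes specific to mating type alpha and 8 of 9 markers of a sporulating diploid. Passing this level thus does not tell the mating types apart. URA3 (1.33 at 18 h, 1.35 at 24 h) and MET17 (2.08 and 2.09) were below background, while HIS3, which the strain lacks in part, was above it (5.153 and 5.225). LEU2 was near it, at 2.54 and 1.95, and this change of -0.59 passed the test used below. A call near background can thus arise for a gene that the strain lacks. The authors' log2 values are scaled alike on every array, so each change below is relative to the other transcripts. On a scale set by 12 poly-A spike-in probe sets all changes were lower by 0.152 ± 0.245 (SE), a shift smaller than its own error, which moved the median of all genes from 0.01 to -0.14.

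The step was broad and shallow. By limma's moderated test with Benjamini-Hochberg adjustment, 1343 genes were higher at 24 h (24.6% of those tested) and 1312 were lower (24.1%), together 48.7%, at an adjusted p under 0.05, which is the meaning of "rose" and "fell" below. Only 28 genes rose (0.514%) and 22 fell (0.404%) by at least 2-fold, and the median size of a change was 0.15 (log2) beside a median SE of 0.064. For 3084 genes (56.6%) the 18 h and 24 h arrays did not overlap. On the spike-in scale 48 genes rose and 241 fell, since the spread of the spike-ins then enters every gene. The preceding step from 12 h to 18 h and the following one from 24 h to 48 h, which share arrays with this one, changed 60.1% and 85.2% of genes in the same fit. The 48 h arrays in 0.5% glucose had a higher 3′ excess of ACT1, 1.45 to 1.54, whose part was not tested.

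The genes that rose most were of varied function, among them fermentation, vitamin synthesis and nitrogen regulation. PDC6 (YGR087C), for a minor isoform of pyruvate decarboxylase, stood at 8.54, 7.93 and 7.97 on the 18 h arrays and at 9.85, 9.80 and 9.75 on the 24 h arrays. All 24 h arrays were more than 1 log2 unit above every 18 h array, and the change was 1.65 ± 0.13 (SE, 3 arrays per group; adjusted p = 1.99e-09). THI4 (YGR144W), for the thiazole precursor of thiamine, was at 6.84, 6.30 and 6.36 and then at 8.11, 8.05 and 8.16, again without overlap, a rise of 1.61 ± 0.11. NCA3 (YJL116C), for a wall protein of the SUN family, rose by 1.59 ± 0.12 and PIR3, for a wall glycoprotein, by 1.24 ± 0.088. In all of these the 18 h replicate 1 was the highest 18 h array, as it was the 18 h array nearest to the 24 h arrays in 26 of the 28 genes that rose at least 2-fold and in 16 of the 22 that fell.

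SNZ1 and SNO1, neighbours on chromosome XIII in RefSeq's R64 gene order whose products make vitamin B6 together, rose side by side. SNZ1 (YMR096W) was at 8.91, 8.62 and 8.55 at 18 h and at 10.07, 10.00 and 10.10 at 24 h, and rose by 1.37 ± 0.065 (adjusted p = 1.35e-12). SNO1 rose by 1.25 ± 0.099. DAL80, a GATA repressor of nitrogen catabolic genes, rose by 1.36 ± 0.12 from 4.80, 4.57 and 3.98 to 5.82, 5.81 and 5.81, so that the 24 h arrays were tight while the 18 h arrays spread by over 0.8. HES1, for an oxysterol-binding protein, rose by 1.35 ± 0.10 and SSA3, for a stress-induced Hsp70, by 1.26 ± 0.098. ERR3, for an enolase-like protein, rose by 1.5 ± 0.17, but its probe set is of a type that can be shared with near-identical copies. ANS1, for a putative cell surface protein, was below background on all 18 h arrays (1.86, 1.74 and 1.55) and above it on all 24 h arrays (3.58, 3.29 and 3.63), which makes it at least 2.31-fold higher at 24 h, set against that background (adjusted p = 1.99e-11 in the fit). The highest change of any gene, 2.27 ± 0.16, belonged to YDL218W, which has no standard name and is named here after its values were seen.

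The genes that fell most were of varied function, among them iron retention at the cell wall, budding and peptide import. FIT2 (YOR382W), for a mannoprotein that holds siderophore-bound iron in the wall, was at 10.53, 10.53 and 10.68 at 18 h and at 8.95, 8.97 and 9.08 at 24 h. Both groups were tight and lay over 1.4 apart, with a change of -1.57 ± 0.077 (2.18e-12, adjusted p). Its neighbour on chromosome XV and near relative FIT3 fell by 1.34 ± 0.061. SFG1, for a transcription factor of pseudohyphal growth, fell by 1.51 ± 0.14, HOF1, for a bud neck protein of cytokinesis, by 1.36 ± 0.099, and GIC1, for an effector of Cdc42 in bud emergence, by 1.17 ± 0.11. ACM1, for an inhibitor of the anaphase-promoting complex, fell by 1.26 ± 0.11. PTR2, for the importer of di- and tripeptides, was at 8.47, 9.02 and 9.10 and then at 7.59, 7.54 and 7.52, and fell by 1.31 ± 0.14; the 18 h replicate 1 was the lowest of its group but still above every 24 h array. SUR7, for a protein of the eisosomes that furrow the plasma membrane, fell by 1.25 ± 0.10. RCE1, for the protease that trims prenylated proteins such as a-factor, fell by 1.22 ± 0.12, and MSF1, for the mitochondrial phenylalanine tRNA synthetase, by 1.16 ± 0.099.

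**Figure D1:**
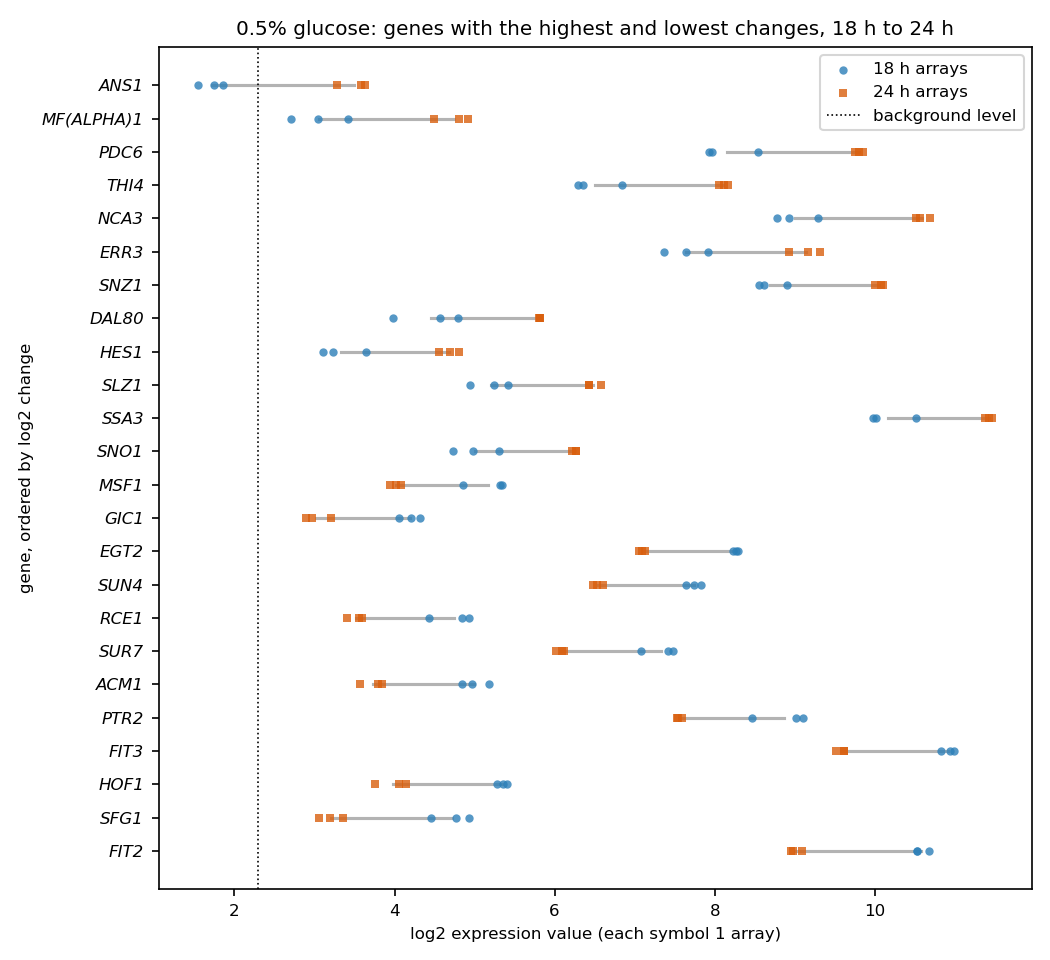
Log2 expression values (horizontal axis) of the 12 named genes that rose most and the 12 that fell most from 18 h to 24 h in 0.5% glucose, with 1 symbol per array (3 blue circles at 18 h, 3 orange squares at 24 h), a grey bar joining the group means and a dotted line at the background of 2.29. In each of the 24 genes the 2 sets of arrays are apart, and for ANS1 the 18 h arrays lie below the background line.

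Among 48 lists of genes by function the lists of cell division, respiration, iron and trehalose had most of their calls on the lower side. Lists for autophagy, nutrient signalling, sulfur amino acids and mating had most on the higher side. Over all genes 24.6% rose and 24.1% fell, the shares beside which each list count is to be read. Of the list medians 24 were above 0, and 19 of these turned below 0 on the spike-in scale. The 24 medians below 0 could not turn, since that scale lowers every gene alike.

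**Figure D2:**
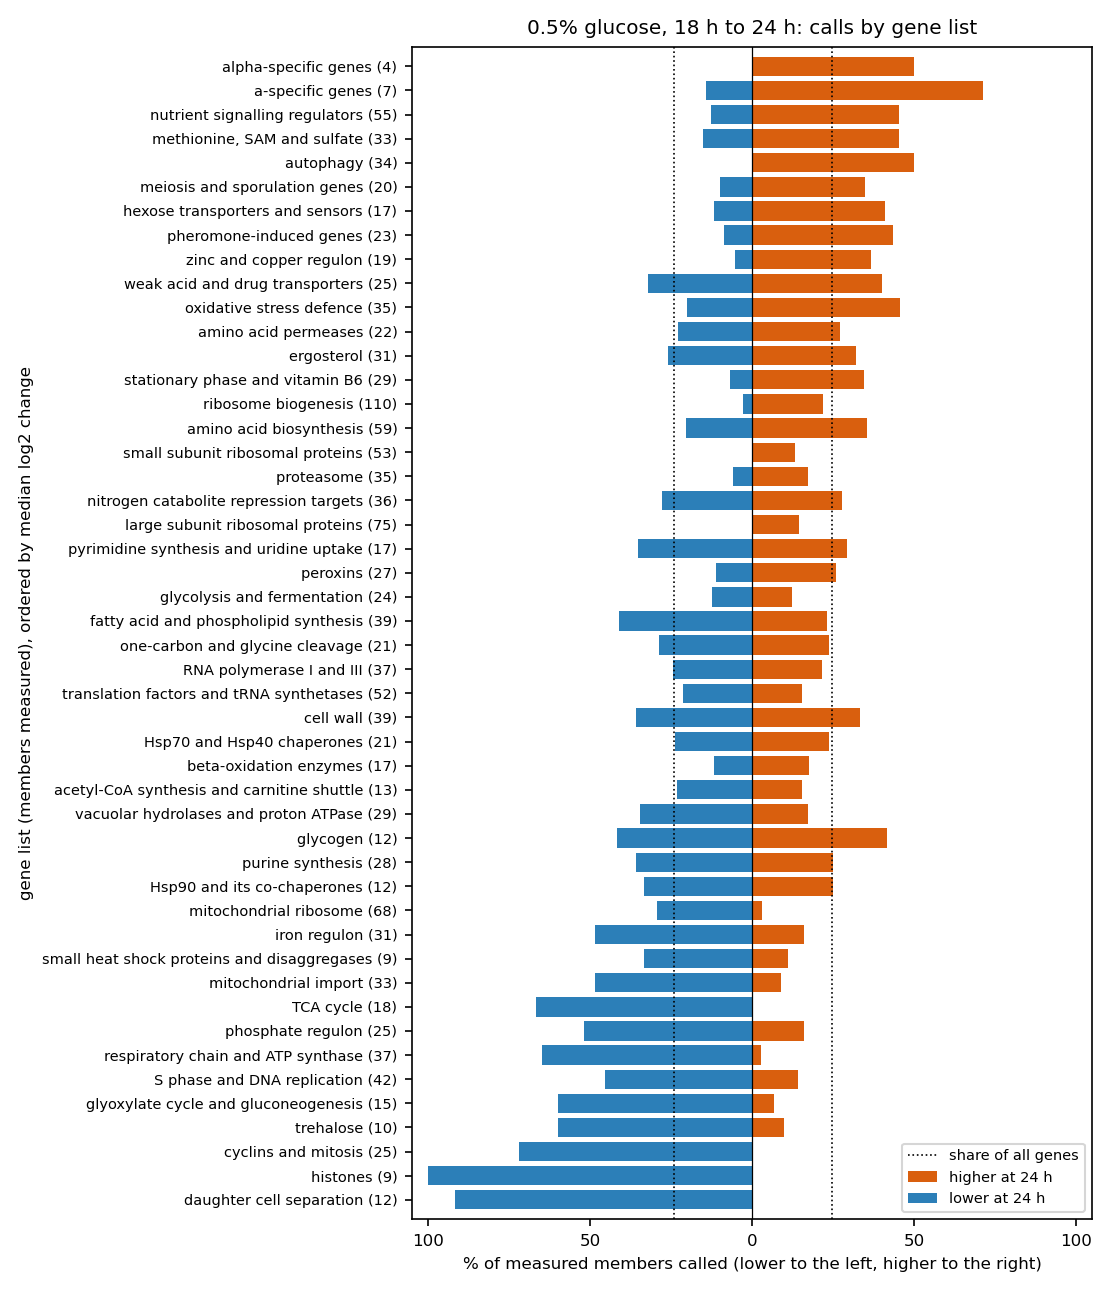
Share of measured members (%, number measured in brackets) that were lower (blue, to the left) or higher (orange, to the right) at 24 h than at 18 h in 0.5% glucose, for 48 gene lists ordered by their median log2 change. Dotted lines mark the shares over all genes, 24.1% lower and 24.6% higher. The lists at the bottom are those of daughter cell separation, histones, and cyclins and mitosis, and 19 of the 24 medians above 0 turn below 0 on the spike-in scale.

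Transcripts of the cell cycle fell together in their mitotic and cell separation parts. In RNA of whole cultures, fewer cells in a phase and less RNA per cell cannot be told apart. Of 25 measured cyclin and mitosis genes 18 fell and none rose, with a list median of -0.36 beside 0.01 for all genes, and the count was also 18 without the 18 h replicate 1. CLB2 (YPR119W), for the main mitotic cyclin, was at 3.45, 3.56 and 3.66 at 18 h and at 2.37, 2.47 and 2.38 at 24 h, close to background at the end, and fell by 1.15 ± 0.078 (adjusted p = 4.26e-10). CDC5, for the polo kinase, fell by 0.91 ± 0.068, CLB1, for another mitotic cyclin, by 0.81 ± 0.070, and BUD4, for a bud site landmark protein, by 0.73 ± 0.070. The cyclin genes PCL1, CLB3 and CLN2, the cyclin kinase subunit gene CKS1 and WHI5, for a repressor of the start of the cycle, were among the 7 that did not pass the test.

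Daughter cell separation, in which enzymes secreted by the daughter cut the septum, had the lowest median of all lists. Of its 12 genes 11 fell and none rose, with a median of -0.81, and 4 fell at least 2-fold. SUN4 (YNL066W), for a septum glucanase, was at 7.82, 7.65 and 7.74 at 18 h and at 6.53, 6.60 and 6.48 at 24 h. The groups were over 1 apart, and the change was -1.20 ± 0.052 (5.94e-13). EGT2, for a wall protein of septum breakdown, fell by 1.17 ± 0.054, DSE4, for a glucanase of the daughter, by 1.14 ± 0.060, DSE2 by 1.09 ± 0.067, and PIR1, for a wall glycoprotein related to PIR3, by 0.98 ± 0.041. PST1, for a wall protein, was the member that did not pass, at 0.26. CHS2, for the chitin synthase of the primary septum, is on the cell wall list and fell by 1.01 ± 0.081.

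All 9 measured histone genes fell, with a median of -0.38 and changes from -0.76 to -0.26, and this count was 9 in every fit that left out 1 array. HTB2 (YBL002W), for histone H2B, was at 8.64, 8.85 and 8.82 and then at 7.85, 8.16 and 8.0, without overlap, and fell by 0.76 ± 0.086. Of 42 genes for S phase and DNA replication 19 fell (45.2%) and 6 rose (14.3%), beside 24.1% and 24.6% over all genes. RNR1, for the large subunit of ribonucleotide reductase, which makes DNA precursors, fell by 0.93 ± 0.11 from 5.35, 5.52 and 5.58 to 4.66, 4.56 and 4.42. RNR3, for the alternative large subunit induced by DNA damage, rose by 0.58 ± 0.083, and RNR2, for a small subunit, by 0.52 ± 0.043. Both large subunit genes thus had non-overlapping arrays in opposite directions. On the spike-in scale RNR3 was still higher at 24 h, while the fall of RNR1 could not turn there.

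The iron regulon, which the factor Aft1 switches on when iron is short, had more members that fell than rose. Of 31 measured members 15 fell and 5 rose, with a median of -0.11. ARN2, for a siderophore transporter, was at 7.94, 7.86 and 8.03 at 18 h and at 6.97, 7.06 and 6.95 at 24 h, and fell by 0.95 ± 0.049 (5.35e-12). FET3, for the multicopper oxidase of high-affinity iron uptake, fell by 0.91 ± 0.065, and SIT1, for another siderophore transporter, by 0.70 ± 0.052. AFT1 itself fell by 0.30 ± 0.074, although its arrays overlapped. The 5 members that rose were the reductase genes FRE4 (0.89 ± 0.11), FRE1 (0.41 ± 0.097) and FRE6, FET5 for a vacuolar oxidase, and AFT2 (0.21 ± 0.067), for the paralogue of Aft1. FIT1, for the remaining mannoprotein of the FIT group, was at -0.04 and did not pass the test.

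Respiratory genes fell by small amounts and in large numbers. Of 37 genes for the respiratory chain and ATP synthase 24 fell and 1 rose, with a median of -0.15, and of 18 for the TCA cycle 12 fell and none rose, with a median of -0.14. CYC1 (YJR048W), for the main cytochrome c, was at 8.93, 9.23 and 9.23 and then at 8.43, 8.44 and 8.41, and fell by 0.70 ± 0.070. NDE1, for the external NADH dehydrogenase, fell by 0.60 ± 0.051, while NDE2, for its isoform, was the member that rose, by 0.24. IDH1, for a subunit of NAD-dependent isocitrate dehydrogenase, was at 9.52, 9.68 and 9.66 and then at 9.09, 9.13 and 9.08, and fell by 0.52 ± 0.069. IDH2, for the partner subunit, fell by 0.43 ± 0.061. HAP4, for the activating subunit of the factor that drives respiratory genes, fell by 0.31 ± 0.068 from 9.99, 9.98 and 10.14 to 9.68, 9.81 and 9.69.

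Of 33 genes for mitochondrial protein import 16 fell (48.5%) and 3 rose, and the lowest change was -0.62. Named by their moderated statistic were SAM50 (-0.38 ± 0.049), for the core of the outer membrane sorting complex, and MAS2 (-0.46 ± 0.063), for a subunit of the processing peptidase. HSP60, for the chaperonin of the matrix, fell by 0.30 ± 0.048 and HSP10, its cofactor from the heat shock list, by 0.46 ± 0.058. Of 68 mitochondrial ribosome genes 20 fell (29.4%, near the 24.1% over all genes) and 2 rose, and without the 18 h replicate 1 the number that fell was 40. MRPL7 (-0.65 ± 0.081) and RSM23 (-0.49 ± 0.051), for proteins of the large and small subunit, were examples. On a list of 39 genes for fatty acid and phospholipid synthesis 16 fell (41.0%) and 9 rose (23.1%, near the 24.6% over all genes), with a median of 0.0009. Of its members PHS1, for an enzyme of fatty acid elongation, fell by 0.82 ± 0.072, ELO1 by 0.69 ± 0.079 and IFA38 by 0.51 ± 0.052.

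Trehalose genes had most of their calls on the lower side, while glycogen genes were split evenly. Of 10 trehalose genes 6 fell and 1 rose, with a median of -0.18. PGM1, for the minor phosphoglucomutase, fell by 1.13 ± 0.079 and PGM2, for the major one, by 0.34 ± 0.044. TSL1 and TPS3, for regulatory subunits of trehalose synthase, fell by 0.33 ± 0.051 and 0.25 ± 0.045, whereas TPS1, for the synthase, was at 0.01 and not called, and ATH1, for an acid trehalase, was the member that rose (0.18 ± 0.051). Of 12 glycogen genes 5 fell and 5 rose. GSY1 (YFR015C), for a glycogen synthase, was at 9.33, 9.54 and 9.54 and then at 8.89, 8.91 and 8.88, and fell by 0.58 ± 0.054. GPH1, for glycogen phosphorylase, fell by 0.51 ± 0.050, GSY2, for the major synthase, by 0.46 ± 0.051, and GLG2, for a glycogenin, by 0.40 ± 0.050. The risers were PIG1, PIG2, GAC1 and GIP2, for targeting subunits of a protein phosphatase, and SGA1, for a glucoamylase of sporulation, at 0.16 to 0.32.

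Of 25 phosphate regulon genes 13 fell and 4 rose, with a median of -0.15, and without the 18 h replicate 1 these counts were 9 and 3. VTC1, VTC3 and VTC4, for the complex that makes vacuolar polyphosphate, fell by 0.34 ± 0.040, 0.31 ± 0.052 and 0.32 ± 0.056. PHO84, for the high-affinity phosphate transporter, fell by 0.39 ± 0.073. PHO92, for an RNA-binding protein linked to the decay of PHO4 transcripts, rose by 0.88 ± 0.078.

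Mating genes rose in part. Of the 7 genes specific to mating type a, 5 rose and 1 fell, with a list median of 0.18 (0.02 on the spike-in scale). MFA1 (YDR461W), for a-factor, was at 7.73, 7.55 and 7.62 and then at 8.73, 8.62 and 8.64, with no overlap, and rose by 1.03 ± 0.060 (3.19e-11). AGA2, for the adhesion subunit of a-agglutinin, rose by 0.68 ± 0.075 and BAR1, for the protease that degrades alpha-factor, by 0.54 ± 0.079, whereas ASG7, for an inhibitor of pheromone signalling, fell by 0.28 ± 0.073. AGA1, for the wall anchor of that agglutinin, was at 5.75, 5.54 and 5.60 and then at 7.06, 6.89 and 6.68, and rose by 1.24 ± 0.093. Of 23 pheromone-induced genes, AGA1 included, 10 rose (43.5%) and 2 fell (8.7%), beside 24.6% and 24.1% over all genes. Their median was 0.11 (-0.04 by the spike-ins). FIG1 and PRM1, for cell fusion, rose by 0.58 ± 0.10 and 0.54 ± 0.12.

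Of the 4 genes normally specific to mating type alpha 2 also rose in this mating type a strain. MF(ALPHA)1 (YPL187W), for alpha-factor, was at 3.42, 3.05 and 2.70 at 18 h and at 4.80, 4.92 and 4.50 at 24 h, and rose by 1.68 ± 0.15 (adjusted p = 1.1e-08). STE3, for the a-factor receptor, rose by 0.63 ± 0.12 from 5.30 to 5.93 in group means. MF(ALPHA)2 at 0.20 (adjusted p = 0.0508, but passing without the 18 h replicate 1 or the 24 h replicate 3) and SAG1, for alpha-agglutinin, at 0.10 did not pass. The summed level of the 4 (log2 of the sum) was 7.11 to 7.25 at 18 h and 7.55 to 7.66 at 24 h, that of the 7 a-specific genes 10.36 to 10.43 and then 10.75 to 10.87. Whether alpha or diploid cells had a part in this was not tested. Of 9 markers of a sporulating diploid, SPS2 was below background at both times, 2 rose and 1 fell, and their summed level was 7.79 to 7.96 and then 8.0 to 8.07.

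Some genes first known from meiosis rose as well. On a list of 20 meiosis and sporulation genes 7 rose (35.0%) and 2 fell (10.0%), beside 24.6% and 24.1% over all genes. The list median was 0.14, or -0.01 by the spike-ins. SPO20, for a membrane fusion protein of spore formation, was at 3.84, 3.81 and 3.59 and then at 5.17, 4.92 and 4.86, and rose by 1.23 ± 0.091. SPO19, for a meiotic surface protein, rose by 1.11 ± 0.12 and IME1, for the master activator of meiosis, by 0.63 ± 0.076, while SPS4, for a sporulation protein, fell by 0.85 ± 0.12. IME2 and NDT80, for the kinase and the factor that act after Ime1, were not called (adjusted p = 0.997 and 0.877).

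No autophagy gene fell and 17 of 34 rose, at a median of 0.16, or 0.01 by the spike-ins, and 14 rose without the 18 h replicate 1. ATG1 (YGL180W), for the kinase that starts autophagy, was at 6.93, 6.63 and 6.81 and then at 7.4, 7.33 and 7.34, and rose by 0.56 ± 0.071. ATG36 and ATG32, for receptors of peroxisomes and mitochondria, rose by 0.43 ± 0.042 and 0.41 ± 0.044. On a list of 29 vacuolar hydrolase and proton ATPase genes 10 fell (34.5%) and 5 rose (17.2%), beside 24.1% and 24.6% over all genes. PEP4, for proteinase A, fell by 0.28 ± 0.039 and APE1, for an aminopeptidase, by 0.40 ± 0.053, while YPS3, for an aspartic protease, rose by 0.70 ± 0.074.

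Of 55 regulators of nutrient signalling 25 rose (45.5%) and 7 fell (12.7%), beside 24.6% and 24.1% over all genes. Their median was 0.17, or 0.02 on the spike-in scale. CRF1, for a corepressor of ribosomal protein genes under TOR, rose by 0.60 ± 0.063, SFP1, for an activator of ribosome synthesis, by 0.37 ± 0.058, and RIM15, for the kinase of entry into quiescence, by 0.31 ± 0.056. MSN4, for a stress activator, fell by 0.22 ± 0.071, a call lost without the 24 h replicate 2, and HST3, for a sirtuin whose transcript is known to peak in dividing cells, by 0.70 ± 0.091. CAT8, SNF1, GIS1 and TOR1 did not pass the test, nor did SCH9, although it passed without the 18 h replicate 1. In the list of 33 genes for methionine, S-adenosylmethionine and sulfate 15 rose and 5 fell, with a median of 0.16, or 0.01 on the spike-in scale, led by MET1 (0.62 ± 0.058) and STR3 (0.62 ± 0.061). MET4, for the activator of sulfur genes, rose by 0.32 ± 0.058.

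Among 35 oxidative stress genes 16 rose and 7 fell, at a median of 0.07, or -0.08 by the spike-ins. SKN7, for a stress response factor, rose by 0.64 ± 0.066, and TRR2 and TRX3, for the mitochondrial thioredoxin system, by 0.59 ± 0.051 and 0.54 ± 0.047. Of 36 nitrogen catabolite genes 10 rose (27.8%) and 10 fell (27.8%), near the shares of 24.6% and 24.1% over all genes. MEP3, for an ammonium permease, fell by 0.79 ± 0.070 from 6.43, 6.41 and 6.4 to 5.70, 5.60 and 5.56, and DAL3, for an allantoin pathway enzyme, by 0.79 ± 0.081. The glycine cleavage genes GCV1 and GCV2 fell by 0.64 ± 0.076 and 0.63 ± 0.10. Of 31 sterol genes 10 rose (32.3%) and 8 fell (25.8%), the latter also near the share over all genes, with SUT1, for a regulator of sterol uptake, up by 1.22 ± 0.088, ERG11 up by 0.58 ± 0.070, and ERG26 and ERG4, for later enzymes of the pathway, down by 0.70 ± 0.075 and 0.62 ± 0.068.

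Ribosomal, proteasome and glycolytic lists held fewer calls than the 48.7% over all genes. Of the ribosomal protein genes 11 of 75 for the large and 7 of 53 for the small subunit rose and none fell, with medians of 0.03 and 0.04. Of 110 ribosome biogenesis genes 24 rose and 3 fell, led by RRS1 (0.55 ± 0.075). Proteasome genes (6 up, 2 down of 35) and glycolysis and fermentation genes (3 up, 3 down of 24) held few calls. Among hexose transporters HXT14 rose by 1.02 ± 0.15 and HXT2 by 0.57 ± 0.11, and HXT7 fell by 0.42 ± 0.074 on a probe set that related genes can share.

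The same step in 2% glucose, measured on 6 other arrays, tests which of these changes depended on the glucose level. In 2% glucose 1373 genes rose (25.2%) and 1337 fell (24.5%). Both steps raised 705 genes and lowered 686, and they went in opposite directions for 207 genes, 93 of them up in 0.5% glucose. The difference between the steps, 0.5% minus 2%, was itself called for 1519 genes (27.9%), higher for 748 (13.7%) and lower for 771 (14.1%). Over all genes the changes of both steps had a Pearson correlation of 0.545, given as a description, since genes are not independent and both steps share 1 array platform and normalization.

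Most of the largest changes had the same direction in both media. Of the 28 genes that rose at least 2-fold in 0.5% glucose, 23 also rose in 2% glucose, 4 were not called and 1, SLZ1, fell. Of the 22 that fell at least 2-fold, 20 also fell in 2% glucose. Sizes were less alike, and 7 of the 28 and 5 of the 22 were also at least 2-fold in 2% glucose. The difference between the steps was called in the direction of the change for 20 of the 28 and 16 of the 22. Picking genes by their size in 0.5% glucose favours a larger step there. YDL218W, PDC6, THI4, NCA3, DAL80 and SUN4 had changes of 2.22, 1.39, 1.48, 1.39, 1.42 and -1.06 in 2% glucose and no called difference. The median of the daughter separation genes was -0.88 in 2% glucose, with 11 of 12 lower, beside -0.81 in 0.5%. Of the 25 cyclin and mitosis genes 18 fell and none rose in 2% glucose too, with a median of -0.31. Their difference was lower for 8 and higher for 1. In 2% glucose 6 of 9 histone genes fell, and of 42 S phase and replication genes 23 fell and 4 rose.

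**Figure D3:**
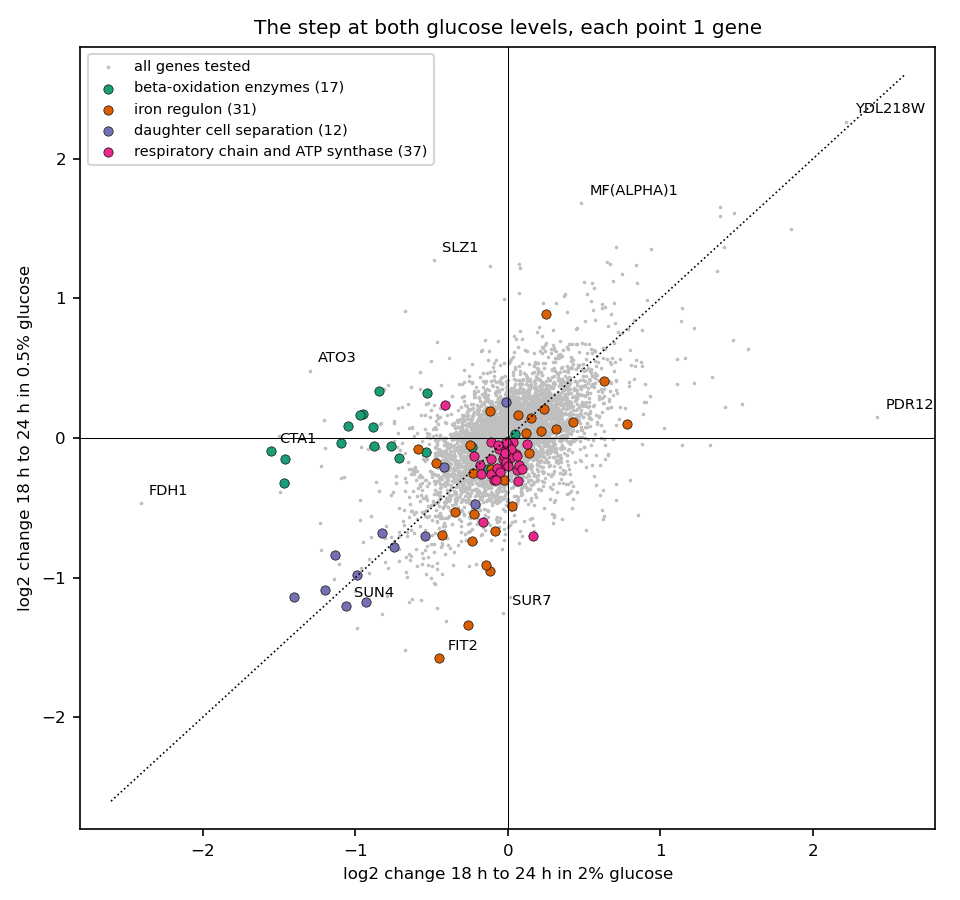
Log2 change from 18 h to 24 h in 2% glucose (horizontal axis) against that in 0.5% glucose (vertical axis) for 5449 genes (grey points), with the members of 4 lists in colour and the line of equal change dotted. Daughter separation genes lie near the line, 11 of the 31 iron regulon genes have a lower and 4 a higher difference, and beta-oxidation genes to the left, at -1.55 to 0.05 in 2% and -0.32 to 0.34 in 0.5% glucose.

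Fatty acid beta-oxidation, the peroxisomal breakdown of fatty acids, held its transcript levels in 0.5% glucose and fell in 2%. Of its 17 genes 3 rose and 2 fell in 0.5% glucose, with a median of -0.06, while in 2% glucose 15 fell and none rose, with a median of -0.88. The difference was called for 14 of 17, all higher in 0.5% glucose. POX1 (YGL205W), for acyl-CoA oxidase, was at 8.21, 8.34 and 8.37 at 18 h and at 8.06, 8.21 and 8.22 at 24 h in 0.5% glucose, overlapping ranges with a change of -0.15 ± 0.074 that did not pass. In 2% glucose it was at 7.93, 7.76 and 7.63 and then at 6.26, 6.34 and 6.33, so the difference was 1.31 ± 0.10 (adjusted p = 1.07e-08). POT1, for thiolase, rose by 0.34 ± 0.058 in 0.5% glucose and fell by 0.84 in 2%. OAF1 and PIP2, for the factors that activate these genes, rose at both levels, by 0.19 and 0.26 in 0.5% glucose and by 0.22 and 0.21 in 2%, with no called difference.

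The glyoxylate cycle and gluconeogenesis, which build sugars from acetate, fell at both levels and less in 0.5% glucose. Of 15 genes 9 fell and 1 rose in 0.5% glucose, with a median of -0.17, and 14 fell in 2%, with a median of -0.53. The difference was higher for 9 and lower for none. FBP1, for fructose bisphosphatase, fell by 0.29 ± 0.045 against a change of -1.09 in 2% glucose, and ICL1, for isocitrate lyase, by 0.33 ± 0.047 against -0.73. ADH2 (YMR303C), for the alcohol dehydrogenase that consumes ethanol, was at 11.60, 11.62 and 11.63 and then at 11.52, 11.56 and 11.53 in 0.5% glucose, a change of -0.09 that did not pass, and at 11.84, 11.72 and 11.70 and then at 10.28, 10.15 and 10.15 in 2%. Its difference was 1.48 ± 0.066 (1.1e-12).

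**Figure D4:**
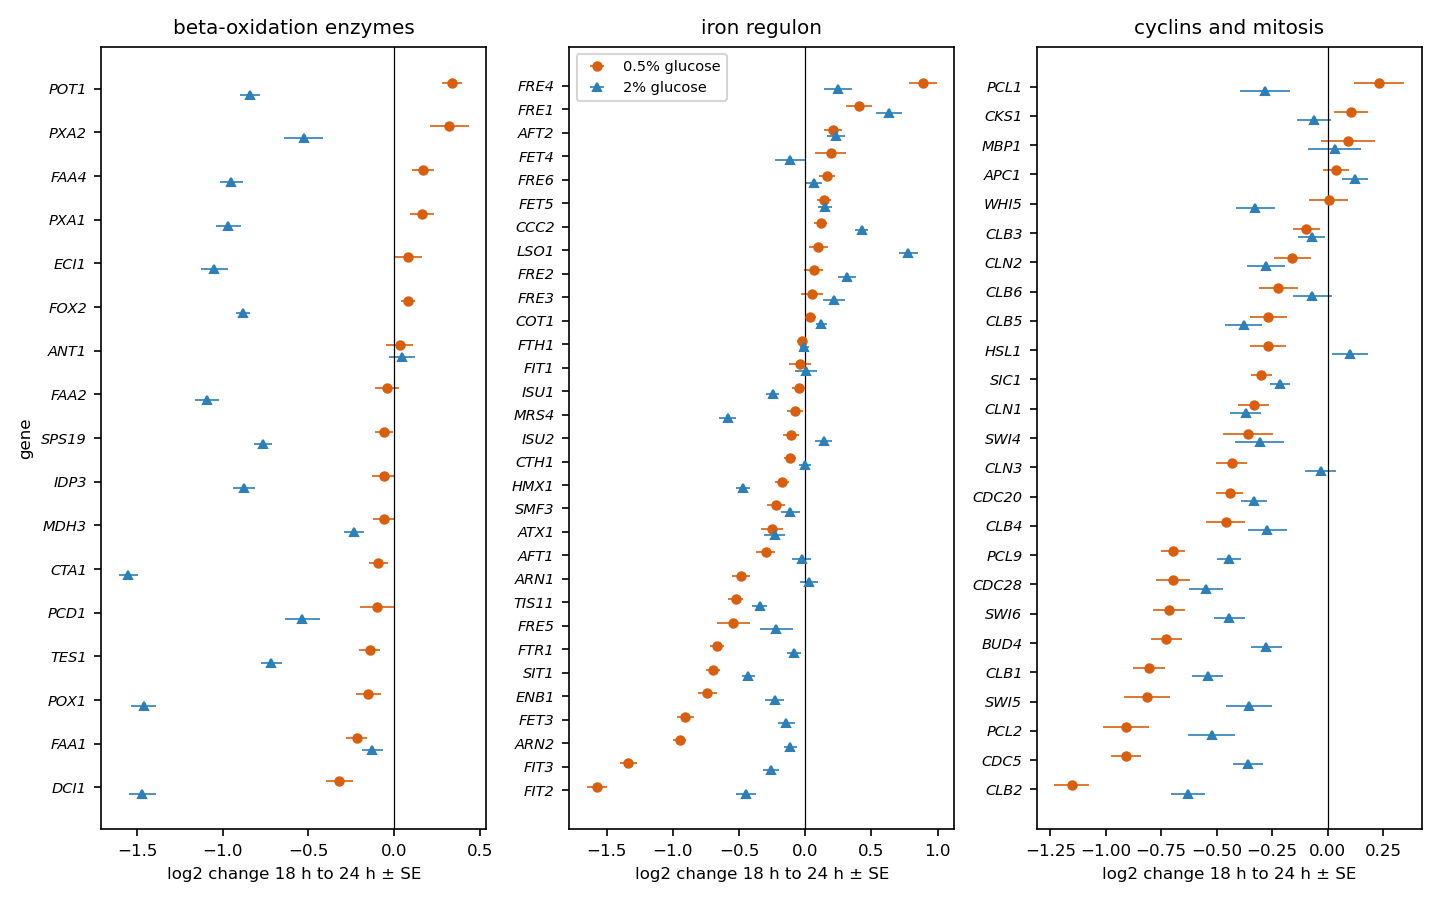
Log2 change from 18 h to 24 h ± SE (3 arrays per group) of every measured member of the beta-oxidation, iron regulon and cyclin lists, in 0.5% glucose (orange circles) and 2% glucose (blue triangles), ordered by the change in 0.5% glucose. Beta-oxidation genes lie near 0 in 0.5% glucose (median -0.06) and lower in 2% (median -0.88), and FIT2 and CLB2 head the falls of the other lists at -1.57 and -1.15.

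Some iron and respiratory genes differed the other way, with a larger fall in 0.5% than in 2% glucose. The difference was lower for 11 of the 31 iron genes and higher for 4, with a median of -0.18 (-0.08 on the spike-in scale). FIT2, at 9.44, 9.56 and 9.35 and then 8.98, 9.06 and 8.95 in 2% glucose, fell there by 0.45, a difference of -1.12 ± 0.11 (1.68e-07), and the 24 h arrays of both media overlapped. FIT3 and ARN2 changed by -0.26 and -0.11 in 2% glucose, with differences of -1.08 and -0.84. For the respiratory chain the difference was lower for 14 of 37 genes and higher for 1, with a median of -0.14 (-0.04 on the spike-in scale), and 22 were not called. For the TCA cycle it was lower for 5 of 18 and higher for 2, and over all genes the shares were 14.1% and 13.7%. CYC1 stood at 8.90, 8.87 and 8.95 and then at 9.07, 9.08 and 9.06 in 2% glucose, a change of 0.17 that did not pass, with a difference of -0.87 ± 0.10 (1.42e-06). HAP4 had a change of 0.07 in 2% glucose and a difference of -0.38 ± 0.096.

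Some trehalose, phosphate and chaperone genes also differed. For trehalose 6 of 10 genes rose and 2 fell in 2% glucose, with a median of 0.15, and the difference was lower for 7 and higher for none. TPS3 changed by -0.25 in 0.5% and by 0.41 in 2% glucose, a difference of -0.66 (1.59e-07). For the phosphate regulon the difference was lower for 10 of 25 genes and higher for 1, with a median of -0.12 (-0.01 on the spike-in scale). PHO84 changed by -0.39 in 0.5% and by 0.40 in 2% glucose, a difference of -0.79 (7.93e-06). Among 21 Hsp70 and Hsp40 genes 5 rose and 5 fell in 0.5% glucose (23.8% each), near the shares of 24.6% and 24.1% over all genes. In 2% glucose 15 rose and 1 fell. The difference was lower for 9 and higher for 3, beside 14.1% and 13.7% over all genes. SSA2 (YLL024C), for a main cytosolic Hsp70, fell from 6.54, 6.30 and 6.45 to 6.02, 6.04 and 5.86 in 0.5% glucose and rose from 7.43, 7.34 and 7.38 to 7.52, 7.88 and 7.66 in 2%, a difference of -0.76 ± 0.13 (0.000221). Of 12 Hsp90 and co-chaperone genes 9 rose in 2% glucose, and in 0.5% 3 rose and 4 fell, or 2 fell without the 18 h replicate 1; the difference was lower for 5, CPR6, for a cyclophilin, among them (-0.57).

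Ribosomal protein genes changed little in 0.5% glucose and fell slightly in 2%. In 2% glucose 24 of 75 for the large and 21 of 53 for the small subunit fell, beside 24.5% of all genes. The difference was higher for 13 and 18 and lower for none, with medians of 0.14 and 0.18. Over all genes it was higher for 13.7%, near the share for the large subunit, and lower for 14.1%. RPL24A rose by 0.21 ± 0.060 in 0.5% glucose and changed by -0.26 in 2%, a difference of 0.47 ± 0.085 that lay above both medians. Of 34 autophagy genes 11 rose and 5 fell in 2% glucose, beside 25.2% and 24.5% of all genes. Their difference was higher for 7 and lower for 1, beside 13.7% and 14.1% over all genes. Of 35 oxidative stress genes the difference was higher for 13 and lower for 2, with MXR1, for a methionine sulfoxide reductase, at 0.46 ± 0.044 in 0.5% and -0.14 in 2% glucose. The pheromone-induced genes had a higher difference for 6 of 23 and a lower one for none, beside the same 13.7% and 14.1%. AGA1 changed by 0.08 in 2% glucose, a difference of 1.17 (1.14e-06).

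The largest differences belonged to genes of varied function. FDH1 (YOR388C), for formate dehydrogenase, was at 7.58, 7.73 and 7.33 and then at 7.16, 7.25 and 6.85 in 0.5% glucose, a change of -0.46 ± 0.13. In 2% glucose it went from 6.62, 6.52 and 5.92 to 4.02, 3.98 and 3.84, so the difference was 1.94 ± 0.19 (1.47e-07). PDR12 (YPL058C), for the exporter of weak organic acids, was at 6.29, 6.0 and 6.09 and then at 6.46, 6.21 and 6.17 in 0.5% glucose, overlapping and not called at 0.15 ± 0.097. In 2% glucose it rose from 6.75, 6.74 and 6.80 to 9.27, 9.17 and 9.11, and the difference was -2.27 ± 0.14 (1.32e-10). ALP1, for a basic amino acid permease, did not pass the test in 0.5% glucose (0.02 ± 0.075) and changed by -1.5 in 2%. ATO3, for a plasma membrane protein linked to ammonium export, rose by 0.48 ± 0.056 and changed by -1.30 in 2% glucose, and SLZ1, first known from sporulation, rose by 1.27 ± 0.13 against -0.49. On the other side, SAM1, for a synthase of S-adenosylmethionine, fell by 0.55 ± 0.11 against a change of 0.86 in 2% glucose. SUR7 changed by -0.03 in 2% glucose, a difference of -1.22 ± 0.15, and ZRT1, for the zinc importer, rose by 0.24 ± 0.086 against 1.53, and the smaller rise did not pass without 18 h replicate 2 or 3 or 24 h replicate 1.

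The course before and after the step is given for the same genes as group means, since those steps share arrays with it. In 0.5% glucose CYC1 was at 10.37, 9.13, 8.42 and 4.93 at 12, 18, 24 and 48 h, and FIT2 at 11.20, 10.58, 9.0 and 6.58, so both were lower at each later harvest. SUN4 was at 7.84, 7.74, 6.54 and 4.43, with no called change before 18 h. SNZ1 was at 7.74, 8.69, 10.06 and 11.45 and DAL80 at 2.73, 4.45, 5.81 and 7.20, higher at each harvest. MF(ALPHA)1 (2.24, 3.06, 4.74 and 3.09), MFA1 (6.82, 7.63, 8.66 and 7.22), PIR3 (7.10, 9.87, 11.11 and 8.56) and PDC6 (5.47, 8.15, 9.80 and 7.72) were highest at 24 h and fell again by 48 h. On the 48 h arrays in 0.5% glucose the 3′ excess of ACT1 was 1.45 to 1.54, against at most 0.85 on the other arrays. Its part in the 48 h levels was not tested.

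**Figure D5:**
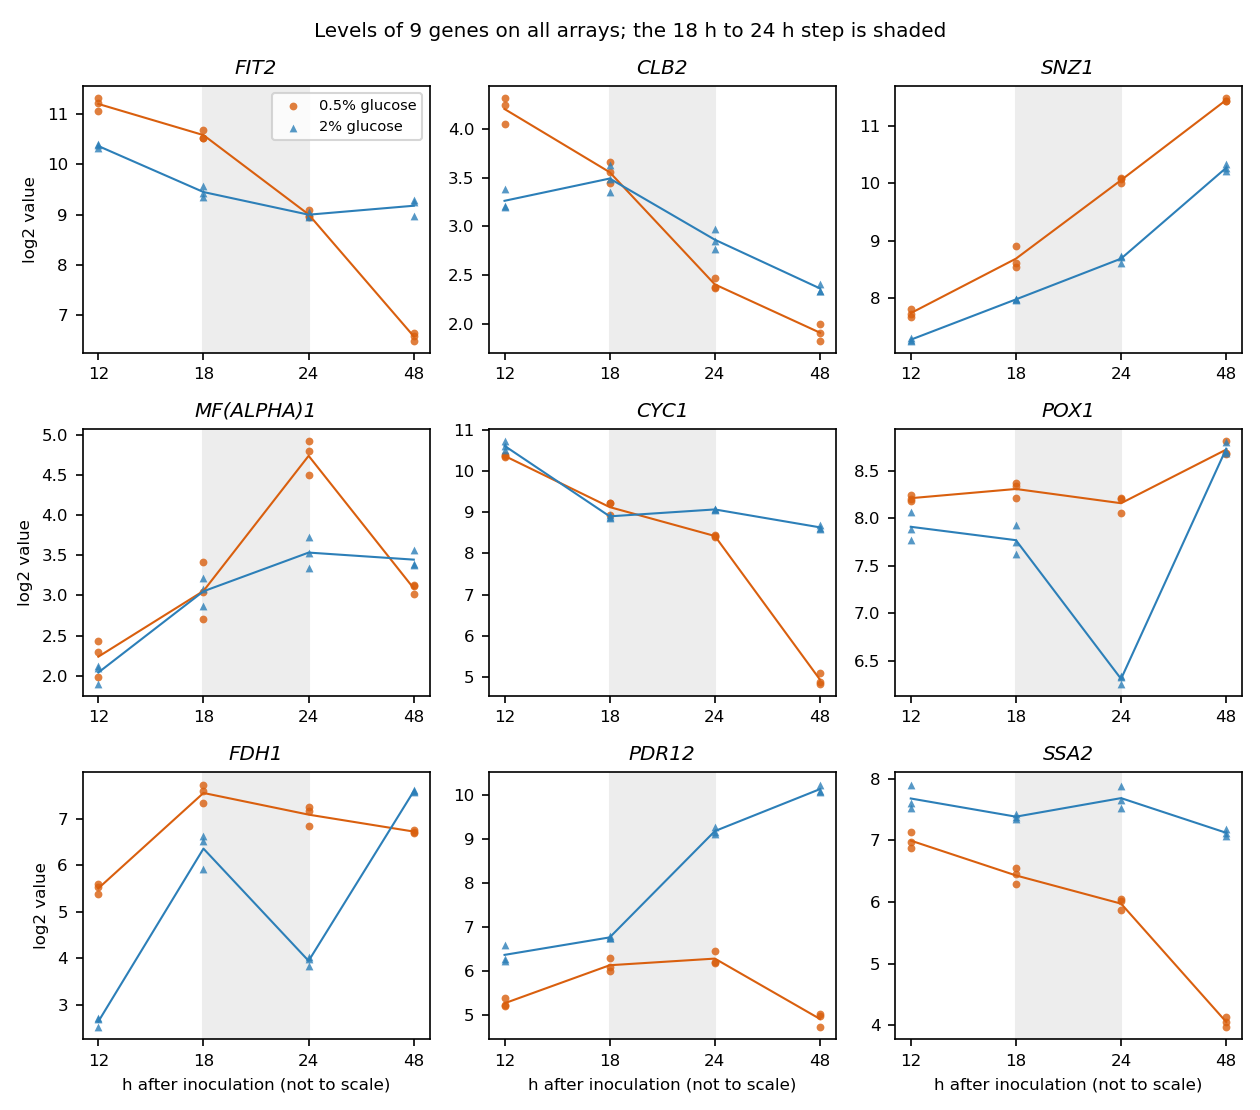
Log2 values of 9 genes on all 24 arrays by harvest time (h after inoculation, not to scale), in 0.5% glucose (orange circles) and 2% glucose (blue triangles), with lines through the means of 3 arrays and the step from 18 h to 24 h shaded. Over the shaded step POX1 and FDH1 fall further in 2% than in 0.5% glucose and PDR12 rises in 2% glucose, although in all 3 the media are already apart at 18 h, MF(ALPHA)1 is highest at 24 h in 0.5% glucose, and FIT2 reaches the same level in both media at 24 h.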

How the data were processed

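Cultures' RNA was hybridised to 24 Affymetrix Yeast Genome 2.0 arrays after TRIzol extraction and biotin labelling, per the labels' protocols. The authors deposited log2 values, taken as base 2 from their range (0.60 to 12.57). Sorted columns differed by at most 0.0095, so the values were quantile normalized before deposition, as inferred here. The submitters' processing notes name Partek without version or role, and the sources used here do not give background correction, summarization or array dates.

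Of 10928 probe sets 5498 matched 1 S. cerevisiae gene, giving 5449 genes. The brightest probe set by mean stood for each of 47 genes with more than 1, and 118 genes had a probe set type that related genes can share. One model over 8 groups was fitted (limma 3.58.1, R 4.3.3), after being tested on simulated data, and p-values were adjusted by Benjamini-Hochberg over all genes in each comparison. The number of arrays limits the precision.

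The members, lists and tests were chosen with earlier results of these data known. Named genes were the 12 highest and 12 lowest changes and the 6 highest and 6 lowest differences between the media (called, above background, with a standard name and arrays that do not overlap, for differences in at least 1 medium and between the media's steps), up to 5 genes per list by the moderated statistic, a fixed panel, and members of lists with 5 or fewer calls in a direction. Other genes named as not called, YDL218W and most genes under other observations were chosen after their values were seen. Alternatives were repeated quantile normalization, median centring, the spike-in scale, removal of dim genes, a variance trend, array weights, fewer arrays, a replicate block, mean probe sets and leaving out each array.

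Deviations of same-numbered 18 h and 24 h arrays in 0.5% glucose correlated at 0.32, 0.024 and 0.21, which did not meet the rule for pairing. Across the media they correlated at 0.307, 0.229 and 0.364 at 18 h and at 0.368, 0.117 and 0.36 at 24 h, which did, and the block then served as the alternative.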

Additional observations from a re-analysis of the deposited data

Results flagged for a closer look

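The step from 18 h to 24 h differed between the glucose levels, by a test of the difference itself in limma, for 748 genes on the higher and 771 on the lower side in 0.5% glucose, and for 160 of the 288 named genes. Differences of the steps, 0.5% minus 2% glucose, singled out here by their size, were 1.94 for FDH1, 1.78 for ATO3, 1.76 for SLZ1, 1.59 for ECM8, 1.51 for ALP1 and 1.48 for ADH2 on the higher side. On the lower side they were -2.27 for PDR12, -1.41 for SAM1, -1.38 for SEC59, for dolichol kinase, -1.29 for ZRT1, -1.22 for SUR7 and -1.20 for WSC4. SEC59 changed by -0.05 in 0.5% and by 1.33 in 2% glucose. ECM8 rose by 0.91 in 0.5% glucose and changed by -0.68 in 2%, and WSC4 changed by -0.58 and 0.62.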

How the results depend on the processing

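The scale set by the spike-ins was the alternative that moved counts by more than 1.5 times, for 5 of the 6 counts. On it 48 genes rose and 241 fell, 49 fell at least 2-fold, and the difference between the glucose levels was higher for 31 and lower for 5 genes. The count that rose at least 2-fold, 19 there against 28, stayed within 1.5 times. The spike-ins' own error, 0.245 against a shift of 0.152, enters every gene there. RPS23A (-0.013), SGT1 (-0.0048), PRE4 (-0.0041), RPT3 (-0.020), MSN2 (-0.019), BCY1 (-0.026), PHO4 (-0.0033) and HXT5 (-0.023) turned direction on that scale, and 186 of 288 named genes kept their direction without passing. Under the 8 other settings and with single arrays left out, all 6 counts stayed within 1.5 times. Leaving out 1 array in turn gave 1117 to 1299 genes higher, 1132 to 1296 lower, 25 to 33 and 20 to 28 at least 2-fold higher and lower, and differences higher for 610 to 782 and lower for 644 to 825. PXA2, FAA4, ZRT1, MIG1, SIP4, PHO4 and PHO5 were among the genes whose call was lost without 1 array. The mitochondrial ribosome list had 15 to 40 falls over these fits, with 40 without the 18 h replicate 1. With the replicate block 1422 genes rose and 1379 fell, with differences higher for 828 and lower for 849 genes, HSP42 and MF(ALPHA)2 (adjusted p = 0.0341 and 0.0273) passed in addition, and no other call of a named gene changed. The 18 h and 24 h arrays each correlated best with their own number across the media. Genes near background, such as ANS1, CLB2, SPO19 (2.45 at 18 h) and HXT14 (2.78), are limited by signal, and 98 genes had every 18 h array below it.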

Other observations

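Genes named THI, most of them for the synthesis, uptake or regulation of thiamine, were counted after the rise of THI4 had been seen. Of 13 measured 10 rose and none fell from 18 h to 24 h in 0.5% glucose, beside 24.6% and 24.1% over all genes. Their median was 0.30 (0.14 on the spike-in scale), and the median in 2% glucose was 0.29. THI73, for a putative permease, rose by 0.91 ± 0.078, THI20, for a kinase of the pyrimidine part of the vitamin, by 0.50 ± 0.047, and THI13, for a pyrimidine synthesis enzyme on a probe set that close copies can share, by 0.69 ± 0.097. THI80, for thiamine pyrophosphokinase, at 0.26 ± 0.13 (adjusted p = 0.101), and THI6 and THI74 did not pass the test.

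The pentose phosphate pathway, which makes NADPH and sugars for nucleotides, was also counted after its values had been seen. Of 10 genes 4 fell and 3 rose in 0.5% glucose, and the difference between the glucose levels was lower in 0.5% glucose for 6 and higher for 1. GND1, for the main 6-phosphogluconate dehydrogenase, fell by 0.51 ± 0.098 against a change of 0.61 in 2% glucose, a difference of -1.13 ± 0.14 (adjusted p = 3.49e-06), while GND2, for its minor isoform, rose by 0.40 ± 0.063 against 0.23. TKL1, for the main transketolase, fell by 0.41 ± 0.071 against a change of 0.61, and TKL2, for the minor one, rose by 0.26 ± 0.058 against 0.51. RKI1, for ribose phosphate isomerase, fell at both levels, by 0.61 ± 0.071 in 0.5% glucose against a change of -1.23 in 2%, the single higher difference of the 10.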
